A study of Mus musculus with 4 samples.

Results

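The small intestine (SI) of mice irradiated with 12 Gy TBI was examined here for 1 group of genes, the variable segments of the immunoglobulin heavy chain (Ighv), the kappa light chain (Igkv) and the lambda light chain (Iglv). RNA of the SI was sequenced at day 1 post-TBI in 2 libraries of p53+/+ mice (WT in the labels) and 2 of p53-/- mice, which lack p53 in all cells, lymphocytes included. All 4 came from irradiated mice, and unirradiated mice were not analysed here. The table of raw counts lists 346 variable segments among 56748 genes, and the 164 with 10 or more counts summed over the 4 libraries were taken as members, chosen by those measured counts (79 of 183 Ighv, 83 of 160 Igkv and 2 of 3 Iglv). Libraries are called by the numbers in the column names, 7 and 8 (p53+/+) or 9 and 10 (p53-/-), and these numbers do not match animals across genotypes. Mice were matched in age and sex according to the methods, which call data points biological replicates, while the labels do not say whether an RNA sample came from 1 animal. The p53-/- libraries held 93.3% of the 115883 counts on members, so that the sum that chose the members came mostly from that genotype. Counts over the members describe them and do not test them.

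An antibody chain is encoded by a variable segment that developing B cells join by DNA recombination to short diversity and joining segments, and the joined exon is then spliced to a constant region. As a rule a B cell keeps 1 productive heavy and 1 productive light chain rearrangement, so the segments seen in RNA of a tissue report which B cells and plasma cells are there and how much antibody mRNA they make. Plasma cells, which secrete antibody, carry far more of this mRNA than resting B cells do. In the SI most plasma cells of the lamina propria make IgA, whose dimers are held by the J chain and carried across the epithelium by the polymeric immunoglobulin receptor.

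Libraries differed in more than genotype. Totals were 17430246 and 15005479 counts in p53+/+ and 22173164 and 19811346 in p53-/-. In p53-/- library 10 the 12 B cell markers summed to 645 CPM (counts per 1000000 counts of library size after TMM, a scaling between libraries), against 30.8 in library 9 and 2.48 and 3.83 in the p53+/+ libraries. Library 10 also held 588 counts of Xist, an RNA of female cells, against 0 to 4 in the others. By Xist, library 10 thus differed in sex from the others, although the methods call the mice matched. The labels do not give sex. On the ribosomal RNA gene Rn18s-rs5 lay 4.59% of the counts of library 10, against 0.296% to 0.863% in the others. Many results are therefore also given without library 10. Trp53 was at 57.7 and 47.1 CPM in p53+/+ and at 19.8 and 22.5 CPM in p53-/-. The SI label was borne out by its markers, since the 10 SI epithelium genes, led by Epcam and Vil1, summed to 11374 to 18170 CPM and none was at 0.

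Sequences of 4 pairs of segments are shown because each pair holds leading or called segments that differ at few bases, while their counts differ. How reads were shared within a pair was not tested. They are coding sequences of the reference mouse from GENCODE M21 (GRCm38), where all 346 segments were found by identifier. Each gene has a leader exon and a variable exon with an intron between them, the last 300 bases of the spliced coding sequence are printed 5′ to 3′, and capitals mark the bases that differ from, or are missing in, the other member of its pair. The build behind the counts is not given in the sources used here, so positions are those of GENCODE M21 only.

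The heavy chain pair lies on the minus strand, Ighv1-26 at chr12:114788372-114788805 and Ighv1-22 at chr12:114746273-114746706. Ighv1-26 led the Ighv counts of both p53-/- libraries and Ighv1-22 came next in library 10 but not in library 9. They differ at 12 of 351 coding bases.
Ighv1-26: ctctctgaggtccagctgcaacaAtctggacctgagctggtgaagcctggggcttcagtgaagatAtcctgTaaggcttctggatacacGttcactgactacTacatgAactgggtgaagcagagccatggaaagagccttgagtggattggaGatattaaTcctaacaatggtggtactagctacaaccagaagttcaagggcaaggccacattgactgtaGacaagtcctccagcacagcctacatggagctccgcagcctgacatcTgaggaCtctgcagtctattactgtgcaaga
Ighv1-22: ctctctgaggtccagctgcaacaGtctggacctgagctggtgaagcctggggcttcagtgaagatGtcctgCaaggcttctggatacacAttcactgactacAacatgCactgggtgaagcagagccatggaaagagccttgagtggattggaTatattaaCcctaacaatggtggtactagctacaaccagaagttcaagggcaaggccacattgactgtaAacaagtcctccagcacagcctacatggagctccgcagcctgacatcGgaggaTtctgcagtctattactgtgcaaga

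The kappa pair Igkv6-23 (chr6:70260409-70260955, minus strand) and Igkv6-15 (chr6:70406469-70406992, minus strand) was high in both p53-/- libraries. They differ at 19 of 347 coding bases.
Igkv6-23: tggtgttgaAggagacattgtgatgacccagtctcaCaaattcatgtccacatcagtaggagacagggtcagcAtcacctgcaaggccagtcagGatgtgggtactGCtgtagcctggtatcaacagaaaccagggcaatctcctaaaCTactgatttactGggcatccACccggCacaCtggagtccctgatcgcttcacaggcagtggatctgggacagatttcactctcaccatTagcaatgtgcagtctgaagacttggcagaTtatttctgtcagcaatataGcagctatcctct
Igkv6-15: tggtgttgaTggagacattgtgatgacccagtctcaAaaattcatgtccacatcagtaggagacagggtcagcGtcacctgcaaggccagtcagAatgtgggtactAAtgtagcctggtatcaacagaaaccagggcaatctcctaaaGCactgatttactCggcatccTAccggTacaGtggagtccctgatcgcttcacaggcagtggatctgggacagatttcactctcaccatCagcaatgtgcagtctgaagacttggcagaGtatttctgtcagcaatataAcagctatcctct

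A second kappa pair, Igkv4-59 (chr6:69438218-69438757, minus strand) and Igkv4-70 (chr6:69267888-69268443, minus strand), is 96.3% identical over 352 aligned positions, of which 4 are gaps. Igkv4-59 led the kappa counts of both p53+/+ libraries, while Igkv4-70 had 0 and 3 counts there.
Igkv4-59: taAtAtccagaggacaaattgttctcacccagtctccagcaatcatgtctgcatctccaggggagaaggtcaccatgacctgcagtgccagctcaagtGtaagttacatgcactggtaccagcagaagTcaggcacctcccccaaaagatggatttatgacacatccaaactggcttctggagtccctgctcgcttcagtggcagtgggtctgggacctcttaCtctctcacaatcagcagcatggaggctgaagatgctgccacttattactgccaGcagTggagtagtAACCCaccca
Igkv4-70: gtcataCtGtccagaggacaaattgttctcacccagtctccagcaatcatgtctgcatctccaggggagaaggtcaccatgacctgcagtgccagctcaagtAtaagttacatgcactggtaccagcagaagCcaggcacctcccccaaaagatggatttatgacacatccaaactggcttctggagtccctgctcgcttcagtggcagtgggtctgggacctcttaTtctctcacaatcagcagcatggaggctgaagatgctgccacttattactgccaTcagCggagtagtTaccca

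Both lambda members lie on the minus strand of chromosome 16, Iglv1 at chr16:19085017-19085500 and Iglv2 at chr16:19260401-19260859. They differ at 11 of 351 coding bases, and Iglv1 held nearly all lambda counts in 3 of the 4 libraries.
Iglv1: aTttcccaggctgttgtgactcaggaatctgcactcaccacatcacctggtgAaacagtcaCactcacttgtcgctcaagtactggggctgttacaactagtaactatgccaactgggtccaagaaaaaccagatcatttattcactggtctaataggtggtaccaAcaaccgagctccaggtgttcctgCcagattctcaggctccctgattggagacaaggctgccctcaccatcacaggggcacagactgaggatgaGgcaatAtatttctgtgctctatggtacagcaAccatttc
Iglv2: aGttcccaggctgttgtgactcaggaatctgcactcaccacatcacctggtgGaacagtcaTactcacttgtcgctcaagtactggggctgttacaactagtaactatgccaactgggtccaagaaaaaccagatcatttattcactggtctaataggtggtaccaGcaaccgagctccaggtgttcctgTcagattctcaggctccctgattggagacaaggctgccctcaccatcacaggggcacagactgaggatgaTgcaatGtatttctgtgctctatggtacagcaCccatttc

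The members were almost all genes that can encode a chain. GENCODE gives 163 of the 164 as functional segments and 1 as a pseudogene (Igkv4-60, at 0, 0, 0 and 47 counts in libraries 7, 8, 9 and 10). Of the 182 listed segments under 10 counts, 129 are pseudogenes and 53 functional, and 25 of those 53 had no count in any library. Near its end the variable exon carries a tyrosine, a tyrosine or phenylalanine, and a cysteine codon ahead of the third complementarity-determining region, which contacts antigen. Searched in frame on the coding strand as TAT or TAC, then TAT, TAC, TTT or TTC, then TGT or TGC, these codons were present in 161 of 164 members (98.2%) and in 65.3% of all 346 segments. Among segments under 10 counts 65 of 182 held them. A segment whose coding sequence does not begin with a start codon was not searched. Coding lengths of members lay between 338 and 394 bases. The nearest other segment of the same chain was at least 95% identical for 88 of 164 members and for 35 of 182 of the rest, and no segment had an identical copy. Reads of such pairs could have been split or dropped, since the treatment of reads that match several genes is not given in the sources used here.

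At the edge of the rule, Igkv3-3 and Igkv6-29 had 10 counts each, all in library 10, and Igkv4-51 had 12. Just outside it, Ighv1-37, Ighv1-47, Ighv1-67, Igkv8-16 and Igkv9-129 had 9 counts each, and those of Ighv1-37 all lay in p53+/+ library 8.

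Variable segment mRNA was higher in the p53-/- SI. Members summed to 1550 counts in library 7, 6237 in library 8, 51828 in library 9 and 56268 in library 10, or 95.9, 405, 2272 and 2799 CPM. The 2 p53-/- libraries exceeded the 2 p53+/+ ones, and library 8 was far above library 7. The mean was 250 ± 218 CPM (SD, n = 2) in p53+/+ and 2535 ± 373 CPM (SD, n = 2) in p53-/-, 10.1-fold higher, with p = 0.333 from a two-sided exact permutation test, the smallest value that 2 against 2 libraries can give. Without library 10 the log2 ratio was 3.18 and with it 3.34. It was 4.72 without p53+/+ library 8 and 2.65 without p53+/+ library 7. In a tissue sample, more or fewer antibody-producing cells and more or less antibody mRNA per cell cannot be told apart.

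**Figure D1:**
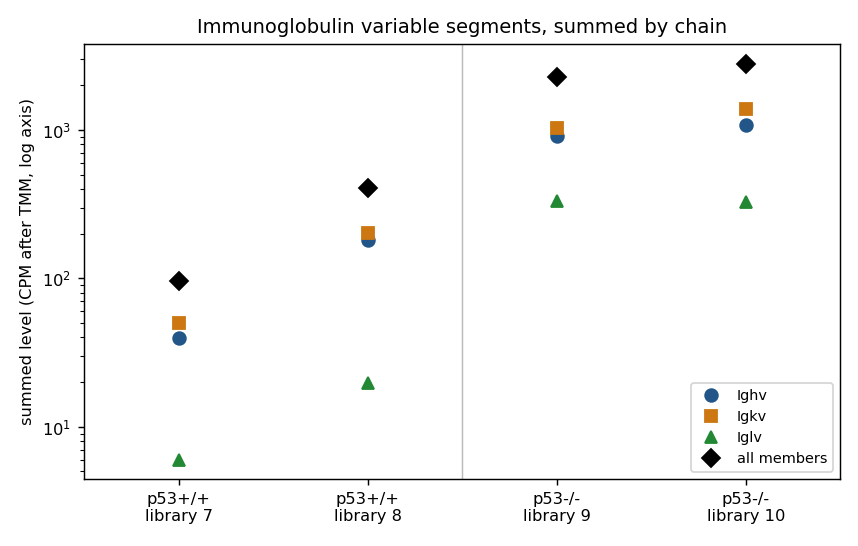
Summed level of the members of each chain in each library, in CPM after TMM on a log axis, with 1 point per library and no error bar because each point is a single library. The 3 chains kept their order in every library, and both p53-/- libraries (2272 and 2799 CPM for all members) lie above both p53+/+ libraries (95.9 and 405 CPM).

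Each chain took part. Ighv members summed to 39.7 and 183 CPM in p53+/+ and to 911 and 1077 CPM in p53-/-. Igkv members summed to 50.3 and 202 CPM in p53+/+ and to 1026 and 1393 CPM in p53-/-. Iglv members summed to 6.003 and 19.8 CPM in p53+/+ and to 334 and 328 CPM in p53-/-. No chain overlapped between genotypes. The ratio of the genotype means was 8.95 for Ighv, 9.58 for Igkv and 25.7 for Iglv, with p = 0.333 for each from the same exact permutation test.

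Lambda chains made up more of the light chain counts in p53-/-. Iglv took 10.7% (95% Wilson interval 8.83% to 12.8%) of Igkv and Iglv counts in library 7 and 8.91% (8.004% to 9.91%) in library 8. It took 24.6% (24.1% to 25.0%) in library 9 and 19.1% (18.7% to 19.5%) in library 10. These intervals cover counting error only, since reads of 1 plasma cell are not independent. The genotypes did not overlap, with means of 9.79% ± 1.24 and 21.8% ± 3.88 (SD, n = 2; p = 0.333, two-sided exact permutation test). Counts divided by coding length gave 9.86% and 21.9%. The constant regions, counted separately, gave the same order, with lambda constant counts (Iglc1 to Iglc4) at 6.30% and 5.20% of light chain constant counts in p53+/+ and at 13.0% and 8.89% in p53-/-.

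The lambda counts came from 1 segment. Iglv1 had 78, 295, 7604 and 6465 counts in libraries 7, 8, 9 and 10, and its near copy Iglv2 had 19, 10, 16 and 135. Iglv1 was thus close to equal in both p53-/- libraries, while Iglv2 was raised in library 10 alone. The fitted difference of Iglv1 was 4.77 on the log2 scale (standard error 0.668), and edgeR's quasi-likelihood test gave an adjusted p of 0.0587, above the threshold of 0.05. Iglc1, the constant region usually joined to Iglv1, had 97, 328, 7737 and 7641 counts, and the counts of Iglv1 per count of Iglc1 lay between 0.804 and 0.983.

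One by one, 7 members rose past the threshold of 0.05 (adjusted p of edgeR's quasi-likelihood test over all 16094 genes tested) and 0 fell. Among all genes tested, 0.298% rose and 0.193% fell. Of the 164 members, 132 had enough counts to be tested, 64 Ighv, 66 Igkv and 2 Iglv. A segment could pass that filter through the genotype where it was high. At an unadjusted p under 0.05 from edgeR, 77 of the 132 were higher and 0 lower, against 1617 genes (about 1 in 10 of those tested) and 7.92%. DESeq2 called 51 higher and 0 lower, against 4.95% and 4.02% of all genes tested. The median log2 fold change of the 132 was 3.17, against -0.01 over all genes tested, and 2.95 with segments at or under 3 counts in both p53+/+ libraries set to a bound of 3 counts in each. Without library 10, edgeR called 0 genes of any kind. Of the 136 members tested without it, 53 were higher and 1 lower at an unadjusted p under 0.05, against 4.59% and 2.60% of the 16696 genes of that fit, and their median log2 fold change was 2.23.

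The 7 called segments were 4 heavy chain and 3 kappa segments. Ighv1-55 had 5 and 12 counts in p53+/+ and 2484 and 1573 in p53-/-, with means of 0.544 ± 0.332 and 93.6 ± 21.7 CPM (SD, n = 2; difference of 7.42 on the log2 scale, standard error 0.415, adjusted p = 0.0109 from edgeR). Ighv1-39 had 8 and 22 counts in p53+/+ and 1586 and 867 in p53-/- (log2 fold change 5.87, adjusted p = 0.0296 from edgeR). Ighv1-31 had 0 and 1 counts in p53+/+ and 265 and 189 in p53-/-, at least 55.3-fold higher with 3 counts set for each p53+/+ library (adjusted p = 0.0356 from edgeR). In each of these 3 heavy chain segments library 9 was above library 10, and the p53+/+ libraries were at 22 counts or fewer. Among kappa segments, Igkv6-15 had 3 and 16 counts in p53+/+ and 1397 and 1815 in p53-/- (log2 fold change 6.95, adjusted p = 0.0288 from edgeR). Igkv8-21 had 0 and 4 counts in p53+/+ and 511 in each p53-/- library (log2 fold change 7.48, adjusted p = 0.0449 from edgeR). Igkv1-117 was the only called segment with more than 50 counts in every library, with 57 and 59 in p53+/+ and 1240 and 1685 in p53-/- (log2 fold change 4.23, adjusted p = 0.0157 from edgeR). The last is Ighv1-72, chosen once its values were known, with 8 and 7 counts in p53+/+ and 466 and 498 in p53-/- (log2 fold change 5.55, adjusted p = 0.0150 from edgeR). Leaving out any 1 library kept all 7 fitted log2 differences at or above 3.93. Fitted values of Ighv1-31 and Igkv8-21 depend on the prior count.

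Both p53-/- libraries were above both p53+/+ libraries for 102 of the 164 members and below them for 0. Over all 346 listed segments the numbers were 107 and 2. Of all genes tested, 26.4% lay above in this way and 24.4% below. Among the 112 segments with 10 or more counts over the p53+/+ libraries alone, a choice made after the data were seen that does not use the p53-/- counts, 68 lay above and 0 below. The genotypes overlapped for the remaining 62 members.

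**Figure D2:**
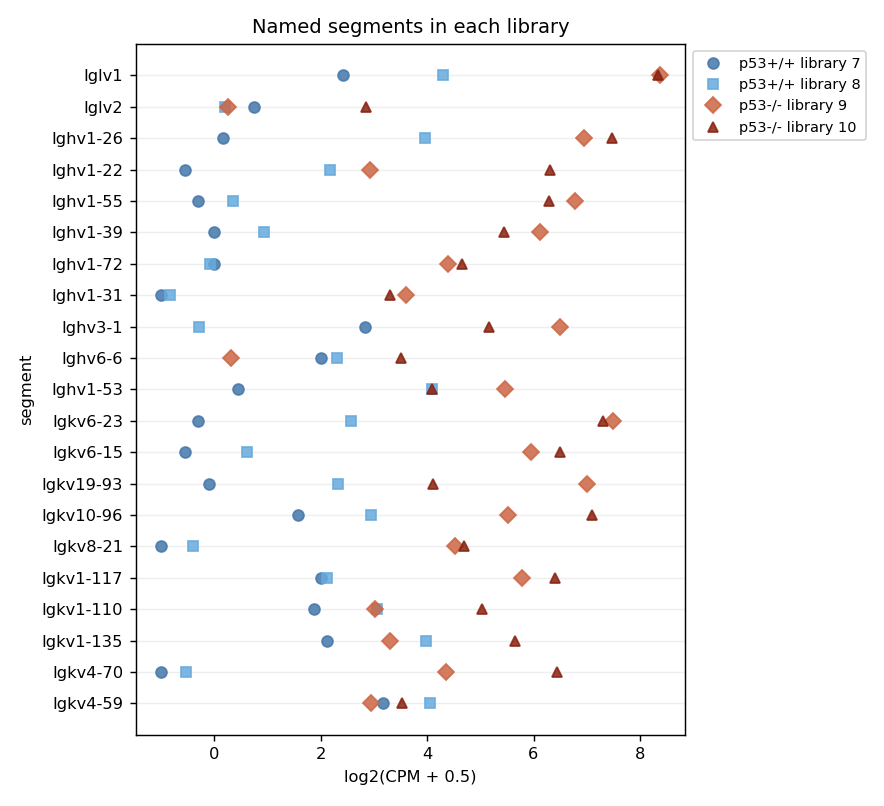
Level of 21 named segments as log2(CPM + 0.5), with 1 point per library and colour and shape marking the library. Points of both p53-/- libraries lie to the right for most segments, while Igkv4-59 (137, 247, 165 and 221 counts in libraries 7, 8, 9 and 10) holds the same range in both genotypes and Ighv6-6 and Iglv2 are raised in library 10 but not in library 9.

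Leading segments of p53-/- were these. Ighv1-26 had 10 and 231 counts in p53+/+ and 2814 and 3566 in p53-/-, the most of any Ighv member in each p53-/- library. Its log2 fold change was 4.27 with an adjusted p of 0.164 from edgeR, and library 8 was far above library 7. Igkv6-23 had 5 and 84 counts in p53+/+ and 4108 and 3187 in p53-/-, the most of any Igkv member in each p53-/- library (log2 fold change 5.89, adjusted p = 0.0849 from edgeR). Igkv10-96 had 40 and 111 counts in p53+/+ and 1037 and 2754 in p53-/- (log2 fold change 4.24, adjusted p = 0.0912 from edgeR). All 3 segments were higher in both p53-/- libraries than in either p53+/+ library, and none passed the adjusted threshold.

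Other leaders differed between libraries of a genotype. Igkv19-93 had 2928 counts in library 9, against 7, 70 and 336 in libraries 7, 8 and 10. Ighv1-22 had 1577 counts in library 10, against 3, 62 and 163 in libraries 7, 8 and 9. Ighv3-1 had 107 counts in library 7 and 5 in library 8, then 2054 and 709 in libraries 9 and 10, so that it led the heavy chain in library 7 and was nearly unread in library 8. Ighv1-53 led in library 8 with 257 counts, where library 7 had 14, and had 996 and 332 in p53-/-. For Igkv19-93 and Ighv1-22 a p53-/- library was far above the other, and for Ighv3-1 and Ighv1-53 the p53+/+ libraries were far apart. Their adjusted p-values from edgeR were 0.164, 0.235, 0.163 and 0.510.

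Igkv4-59 was at like levels in both genotypes. It had 137 and 247 counts in p53+/+ and 165 and 221 in p53-/-, at 12.3 ± 5.34 and 9.11 ± 2.66 CPM (SD, n = 2; log2 fold change -0.43, standard error 0.425, adjusted p = 0.670 from edgeR). It was 8.84% and 3.96% of all member counts in p53+/+ and 0.318% and 0.393% in p53-/-. Its near copy Igkv4-70 had 0 and 3 counts in p53+/+ and 453 and 1734 in p53-/-, at least 279-fold higher with 3 counts set for each p53+/+ library (adjusted p = 0.0569 from edgeR). Igkv1-135 with 62, 236, 214 and 1002 counts and Igkv1-110 with 51, 120, 173 and 649 in libraries 7, 8, 9 and 10 also overlapped between genotypes. Of the 132 tested members, 9 had a log2 fold change under 0, and none of these had an unadjusted p under 0.05 from edgeR. Without library 10 the number under 0 was 32 of 136, without library 7 it was 23 of 159, and without library 8 it was 3 of 157. Over the 4 libraries 39 members had 10 or more counts in each, and the 5 with the highest level in their lowest library were Igkv4-59, Iglv1, Igkv1-135, Igkv1-117 and Igkv1-110.

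The number of segments detected followed the number of counts. At 1 count or more, 110 and 145 members were seen in p53+/+ and 150 and 164 in p53-/-. At 10 counts or more the numbers were 47, 96, 127 and 154. With every library brought to the 1550 counts of library 7 by the hypergeometric expectation, 110 and 127 members were expected in p53+/+ and 105 and 130 in p53-/-. At equal counts, each genotype thus had 1 library near 105 to 110 members and 1 near 127 to 130, and the means were 118 ± 11.9 and 118 ± 17.9 (SD, n = 2; p = 1.00, two-sided exact permutation test).

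The 10 leading members held more of the counts in p53-/-. Evenness and the number of members holding 50% of counts did not separate the genotypes. Pielou evenness, which is 1 when all members have equal counts, was 0.790 and 0.839 in p53+/+ and 0.730 and 0.800 in p53-/- (p = 0.667, two-sided exact permutation test). The Simpson effective number, which gives most weight to leading segments, was 34.8 and 50.2 in p53+/+ and 21.3 and 30.4 in p53-/-, without overlap (p = 0.333, two-sided exact permutation test). Within Ighv and within Igkv this number overlapped between genotypes. For Ighv it was 17.3 and 24.3 in p53+/+ and 16.2 and 18.9 in p53-/-. For Igkv it was 17.0 and 26.9 in p53+/+ and 13.2 and 21.0 in p53-/-. The 10 leading members held 43.9% and 34.9% of member counts in p53+/+ and 55.5% and 46.0% in p53-/-. Library 9 was the least even by each of these measures, and 8 of its members held 50% of its counts, against 13, 18 and 13 in libraries 7, 8 and 10. The leading member was Igkv4-59 in library 7, at 8.84% (95% Wilson interval 7.53% to 10.4%), and Iglv1 in the others, at 4.73% (4.23% to 5.29%), 14.7% (14.4% to 14.98%) and 11.5% (11.2% to 11.8%).

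**Figure D3:**
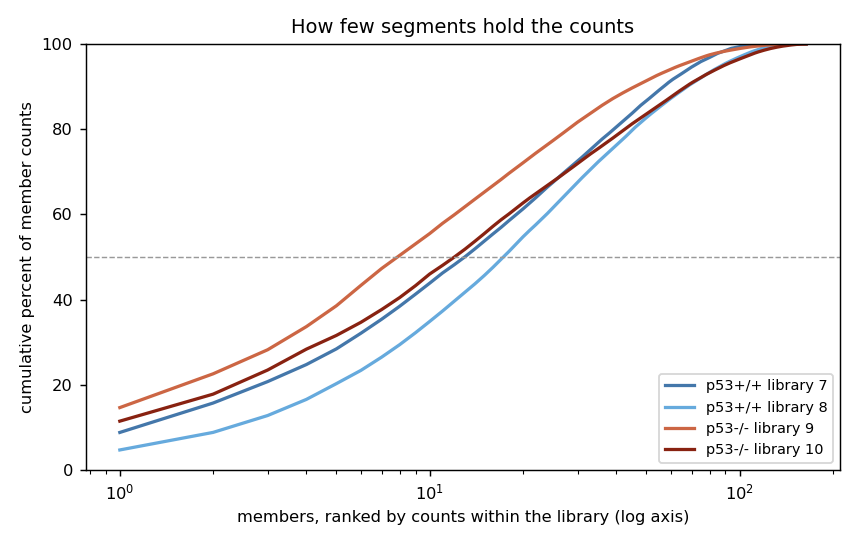
Cumulative percent of member counts against the rank of the member within each library (log axis), with 1 line per library and a dashed line at 50%. The curve of p53-/- library 9 is the highest up to rank 8, where it reaches 50%, and that of p53+/+ library 8 is the lowest, reaching 50% at rank 18.

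Segments fall into families by sequence, named by the first number. Of the heavy chain families, Ighv1, the largest listed (40 members of 92 segments), took 37.9% and 52.9% of Ighv counts in p53+/+ and 70.4% and 67.6% in p53-/-. Ighv6 took 12.6% and 8.31% in p53+/+ and 0.264% and 2.13% in p53-/-, and Ighv7 took 3.28% and 7.28% in p53+/+ and 0.414% and 0.540% in p53-/-. Shares of the genotypes did not overlap for these 3 families. In the kappa chain, Igkv6 (9 members) took 2.71% and 8.69% in p53+/+ and 24.6% and 21.4% in p53-/-. Igkv4, which holds Igkv4-59, took 34.5% and 21.2% in p53+/+ and 11.3% and 17.9% in p53-/-, and Igkv3 took 8.37% and 9.14% in p53+/+ and 1.04% and 2.92% in p53-/-. Families that did not separate the genotypes included Ighv3, with 19.5%, 5.51%, 10.7% and 7.62% in libraries 7, 8, 9 and 10, and Igkv8, with 4.56%, 11.4%, 21.1% and 10.1%. These families were named after their shares were seen, and separation was not particular to them. Most other Ighv families also separated the genotypes, among them Ighv5 and Ighv2. So did several other Igkv families, among them Igkv1 and Igkv16, while Igkv10 and Igkv12 did not.

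**Figure D4:**
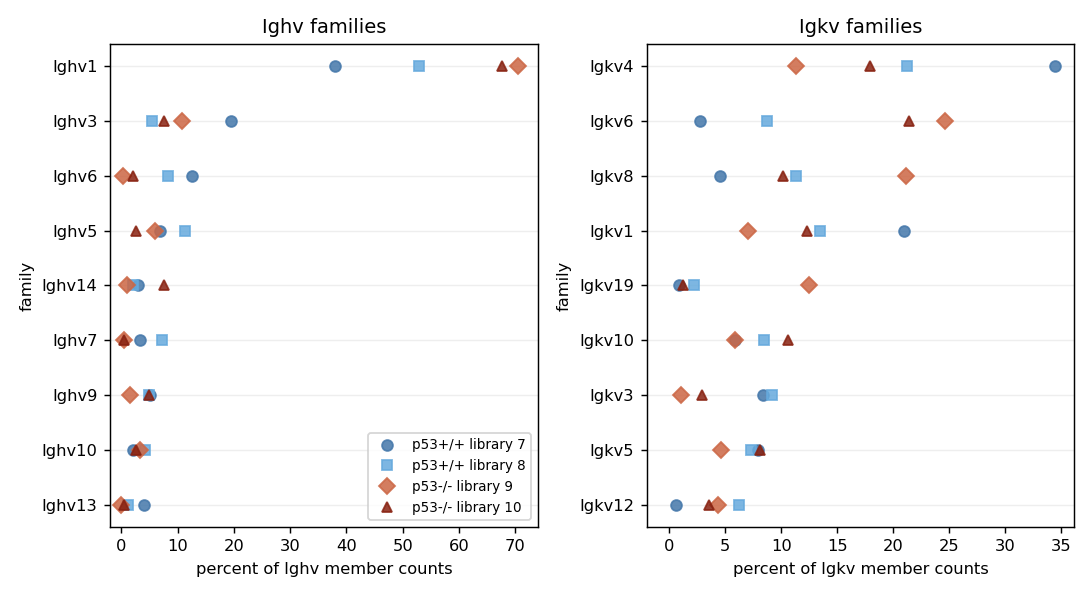
Share of Ighv counts (left) and Igkv counts (right) taken by each of 9 families per chain, with 1 point per library. Among the families that separate the genotypes, Ighv1 and Igkv6 lie to the right in both p53-/- libraries. Ighv6, Ighv7, Igkv4 and Igkv3 lie to the left, as do others such as Ighv5 and Igkv1.

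The p53-/- libraries were the most alike in segment use, and the p53+/+ libraries came next over all members and for Igkv, but not for Ighv or by family. The Morisita-Horn index, which is 1 for equal shares and 0 for none in common, was 0.855 for libraries 9 and 10 and 0.614 for libraries 7 and 8. The 4 pairs across genotypes lay between 0.414 and 0.600. Of the 20 leading members of each library, libraries 9 and 10 shared 12 and libraries 7 and 8 shared 9, while pairs across genotypes shared 5 to 8. Summed by family, the index was 0.955 for libraries 9 and 10 and 0.880 for libraries 7 and 8, and between 0.686 and 0.925 across genotypes. For Ighv alone it was 0.779 for libraries 9 and 10 and 0.370 for libraries 7 and 8, below 3 of the 4 pairs across genotypes (0.332 to 0.591). For Igkv alone it was 0.746 and 0.725, above all 4 pairs across genotypes (0.237 to 0.526). Library 7 had few counts, so its shares are the least precise, and these values carry no test because the pairs share libraries.

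Single segments varied widely between libraries of the same genotype. For the 106 members with 100 or more counts over libraries 9 and 10, the median absolute deviation of the log2 ratio between these libraries was 1.39, against 0.220 for 12826 genes with as many counts. For the 25 such members of libraries 7 and 8 it was 1.10, against 0.238 for 11648 genes. In the fit the median biological coefficient of variation was 0.650 for tested members and 0.289 for all genes tested. Chosen for its difference after the values were seen, Ighv14-1 had 1054 counts in library 10 and 0, 16 and 26 in libraries 7, 8 and 9. In the other direction Ighv5-16 had 732 counts in library 9 and 11, 17 and 35 in libraries 7, 8 and 10. Members on the whole were higher in library 10, with 116 of 164 above library 9. Of the 164, 14 had no count in library 9 and so could only be higher in library 10. For the 106 members with 100 or more counts the median log2 ratio of library 10 over library 9 was 0.564. It was 0.00464 for the 12826 genes.

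Variable segments moved with IgA and the J chain. Igha, the IgA constant region, had 3418, 14308, 120887 and 138083 counts in libraries 7, 8, 9 and 10, and Jchain had 598, 2604, 23645 and 28671. Member counts per count of Igha were 0.453 and 0.436 in p53+/+ and 0.429 and 0.407 in p53-/-, and per count of Jchain they were 2.59, 2.40, 2.19 and 1.96. Over the 4 libraries the former ratio spanned 1.11-fold and the latter 1.32-fold, while the summed level of members spanned 29.2-fold. Igha made up 98.6%, 99.0%, 99.5% and 87.5% of heavy chain constant counts in libraries 7, 8, 9 and 10.

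The other heavy chain constant regions, Ighe apart, were far higher in library 10 than in library 9. Ighm (IgM) had 40, 97, 227 and 6839 counts in libraries 7, 8, 9 and 10, Ighd (IgD) had 3, 1, 35 and 1415, and Ighg2b (an IgG subclass) had 5, 29, 332 and 9594. All 3 were highest by far in library 10. Ighg1 (0, 1, 43 and 1094), Ighg2c (1, 9, 9 and 294) and Ighg3 (0, 11, 4 and 541) showed the same excess of library 10, while Ighe (IgE) had 11 counts in library 9 and 0 elsewhere. Summed members, by contrast, were 2272 CPM in library 9 and 2799 CPM in library 10. Ighv counts per heavy chain constant count were 0.185 and 0.195 in p53+/+ and 0.171 and 0.137 in p53-/-, lowest in library 10. Igkv counts per count of Igkc, the kappa constant region (1607, 6751, 53654 and 88707 counts), were 0.505, 0.462, 0.436 and 0.316. Of lambda constants, Iglc2 had 7, 30, 220 and 678 counts, Iglc3 had 4, 12, 48 and 335, and Iglc4 had 1 count in library 10. Of the 13 constant region genes 11 were tested and 0 passed the adjusted threshold of edgeR's test in either direction, while 9 were higher at an unadjusted p under 0.05 and DESeq2 called 10 higher and 0 lower. Their median log2 fold change was 4.72, or 3.16 without library 10.

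**Figure D5:**
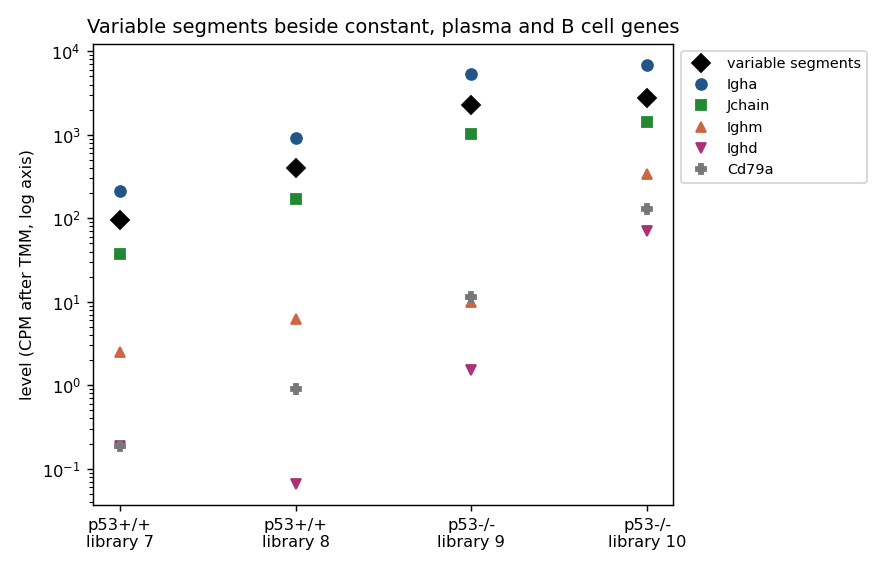
Level in CPM after TMM (log axis) of the 164 members together and of Igha, Jchain, Ighm, Ighd and Cd79a, with 1 point per library. Members, Igha and Jchain lie close to level between libraries 9 and 10, while Ighm, Ighd and Cd79a are far higher in library 10.

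Of the 12 plasma cell genes, 2 rose and 0 fell past the adjusted threshold of edgeR's test, while DESeq2 called 8 higher and 1 lower. At an unadjusted p under 0.05 from edgeR, 10 were higher and 1 lower. The 2 that rose, and the 1 that was lower, are given here with their values already known. Derl3, a factor of protein quality control in the endoplasmic reticulum, had 24 and 25 counts in p53+/+ and 314 and 297 in p53-/- (log2 fold change 3.19, adjusted p = 0.0424 from edgeR). Tent5c, which lengthens poly(A) tails of antibody mRNA, had 242 and 268 counts in p53+/+ and 1138 and 1046 in p53-/- (log2 fold change 1.65, adjusted p = 0.0432 from edgeR). Neither overlapped between genotypes. Sdc1, a surface marker of plasma cells that epithelium also expresses, was at 414 and 308 CPM in p53+/+ and at 229 and 199 CPM in p53-/- (log2 fold change -0.76, adjusted p = 0.191 from edgeR and 0.0121 from DESeq2). Jchain, the gene of the list with the highest mean, differed by 3.58 on the log2 scale (adjusted p = 0.112 from edgeR). Xbp1, a transcription factor of secretory cells that epithelium also expresses, had 4423, 3366, 9043 and 7655 counts in libraries 7, 8, 9 and 10 (log2 fold change 0.66, adjusted p = 0.202 from edgeR). The list's median log2 fold change was 2.17, or 2.19 without library 10. The part of plasma cell number in the results on members was not tested.

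B cell genes were far less even between the p53-/- libraries. Of the 12 on the list, 11 were tested and 0 passed the adjusted threshold in either direction by edgeR. At an unadjusted p under 0.05 from edgeR 11 were higher, DESeq2 called 9 higher and 0 lower, and the p53-/- libraries were above the p53+/+ libraries for 12 of 12. Cd79a, a signalling chain of the B cell receptor, had 3, 14, 259 and 2563 counts in libraries 7, 8, 9 and 10, and Cd79b had 14, 12, 124 and 1620. The median log2 fold change of the 11 tested was 8.99, or 5.09 without library 10. At 0 counts were 6 and 7 of the 12 in the p53+/+ libraries and none in p53-/-. Summed members per count of Cd79a were 517 and 446 in p53+/+, 200 in library 9 and 21.95 in library 10. The germinal centre list of 7 summed to 28.7 and 29.5 CPM in p53+/+ and to 29.6 and 86.2 CPM in p53-/-, led by Bcl6 and Rgs13 (which tuft cells also express). Its 4 tested genes gave 0 calls in either direction by edgeR or DESeq2, and 0 at an unadjusted p under 0.05 from edgeR. Their median log2 fold change was 0.634, or -0.00595 without library 10. The follicle epithelium list of 6 summed to 34.7 and 30.4 CPM in p53+/+ and to 70.9 and 181 CPM in p53-/-, led by Tnfaip2 and Spib. Of its 4 tested genes edgeR called 0 in either direction, with 4 higher at an unadjusted p under 0.05, and DESeq2 called 3 higher. Their median log2 fold change was 2.05, or 1.24 without library 10. The part of B cells and follicle tissue in the results on members was not tested.

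Factors that act on variable segment promoters were measured as well. The octamer in these promoters is bound by Oct-1 (Pou2f1) and Oct-2 (Pou2f2) with their coactivator OCA-B (Pou2af1). Pou2af1 had 17, 35, 269 and 1641 counts in libraries 7, 8, 9 and 10 (log2 fold change 4.81, adjusted p = 0.118 from edgeR), and Pou2f2 had 13, 24, 110 and 543 (log2 fold change 3.75, adjusted p = 0.145 from edgeR). Pou2f1, which most cells express, had 161, 163, 346 and 324 (log2 fold change 0.61, adjusted p = 0.289 from edgeR). Without library 10 the log2 fold changes of Pou2af1, Pou2f2 and Pou2f1 were 2.87, 2.07 and 0.614. For all 3 the p53-/- libraries lay above the p53+/+ ones, as for 26.4% of all genes tested. By edgeR 0 passed the adjusted threshold and 2 had an unadjusted p under 0.05, and DESeq2 called 2 higher, Pou2af1 (adjusted p = 0.00416) and Pou2f2 (adjusted p = 0.000413).

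Genes of segment recombination and of the surrogate light chain were near 0. Rag1 and Rag2, the recombinase, had 1 count and 0 counts in all, and Dntt, which adds bases at the joints, had 8 counts in library 10 alone. Vpreb1 had 2, 2, 5 and 2 counts in libraries 7, 8, 9 and 10, and Vpreb2 and Igll1 had 0. Joining segments, short exons next to the variable segment in mature mRNA, had 8 and 19 counts in p53+/+ and 367 and 348 in p53-/-, and diversity segments 0 and 0 against 1 and 5. None of the 6 recombination genes had enough counts to be tested.

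T cells and blood were examined beside the members. The variable segments of the T cell receptor (178 listed) had 14 and 13 counts in p53+/+ and 211 and 261 in p53-/-. They summed to 0.866 and 0.843 CPM in p53+/+ and to 9.25 and 13.0 CPM in p53-/-. The mean was 13.0-fold higher, a ratio that rests on few p53+/+ counts over all listed segments. It was 10.1-fold higher for the immunoglobulin members, which were chosen by their counts. The 9 T cell genes, led by Lck and Cd8a, summed to 7.61, 14.3, 68.0 and 135 CPM in libraries 7, 8, 9 and 10, with 0 of 9 past the adjusted threshold of edgeR's test. At an unadjusted p under 0.05 from edgeR 9 of 9 were higher, and DESeq2 called 9 of 9 higher. The 5 red blood cell genes, led by Hba-a1 and Hbb-bs, summed to 0.619 and 1.43 CPM in p53+/+ and to 2.28 and 5.97 CPM in p53-/-, near 0 beside the members, and 0 of the 2 tested were called by edgeR or DESeq2 or had an unadjusted p under 0.05 from edgeR. For the 10 SI epithelium genes the median difference was -0.42 on the log2 scale. By edgeR 0 were called, with 1 higher and 2 lower at an unadjusted p under 0.05, and DESeq2 called 1 higher and 2 lower. Picked out once its values were known, the gene higher in p53-/- was Olfm4, a marker of crypt stem cells, at 47.6 and 16.0 CPM in p53+/+ and 473 and 525 CPM in p53-/- (log2 fold change 3.97, adjusted p = 0.0587 from edgeR and 2.46e-16 from DESeq2). The 2 lower genes were Fabp2 and Alpi of mature enterocytes, with log2 fold changes of -0.77 and -0.93. The part of T cells in the results on members was not tested.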

How the data were processed

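RNA of the SI was purified on poly-T and sequenced by the submitters. Raw, not normalized read counts for each gene were deposited by the authors, with 1 column per library. The submitters' processing notes name fastp, HISAT2 2.0.5, featureCounts 1.5.0-p3 and DESeq2 1.20.0. The build, the strand setting and the treatment of reads matching several genes are not given in the sources used here. This could shift counts between segments that are near copies.

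Members and gene lists were chosen with earlier results of these data known. Libraries were scaled by TMM, filtered with filterByExpr and tested between genotypes with edgeR 4.0.16 (quasi-likelihood test, R 4.3.3) over 16094 genes, two-sided, with Benjamini-Hochberg adjustment and a threshold of 0.05. CPM are counts per 1000000 counts of the scaled library size. The script was tested on simulated data. Sums, shares and diversity were computed per library and compared with exact permutation tests (SciPy 1.17.1). Sequences were aligned with Biopython 1.88. Shares have 95% Wilson intervals. Alternatives were other scalings, filters, DESeq2 1.42.0, the likelihood ratio test, other member rules, other diversity measures and each library left out. The libraries of a genotype differed beyond sampling noise. Chi-square per degree of freedom was 48.0 in p53+/+ and 69.5 in p53-/- over all genes, and 16.9 and 134 over members. The p-values set the difference between genotypes against the variation between libraries of a genotype. Segments named were the 2 leading ones per chain and library, the 5 largest changes past the threshold, the 5 highest in their lowest library and those nearest the count rule, with 5 tied on 1 side.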

Additional observations from a re-analysis of the deposited data

How the results depend on the processing

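The 7 segments higher in p53-/- became 4 with library size only, 110 with no filter on low counts, 1 with at least 10 counts in every library (which leaves 39 members), 65 with edgeR's likelihood ratio test and 51 with DESeq2. With 1 library left out the number lay between 0 and 56, at 32 without library 7, 56 without library 8, 10 without library 9 and 0 without library 10. The same 7 genes were among those called without library 7 or 8, with no filter, by DESeq2 and by the likelihood ratio test. Segments lower in p53-/- numbered 0 in every alternative run, DESeq2 included, and 0 to 4 had an unadjusted p under 0.05, the 4 without library 7.

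The difference between genotypes in the number of segments at equal counts was -0.637. It reversed to 2.19 for segments with a sum of 100 counts or more. Without bringing the libraries to equal counts, it was 29.5 for segments at 1 count or more and 69.0 at 10 counts or more. The p53-/- libraries had more member counts, and the part of this in those values was not tested. With 1 library left out the difference at equal counts lay between -13.3 and 12.0, at 7.77 without library 8 and 12.0 without library 9. The directions of the summed level, the evenness, the kappa share and the heavy chain ratio held in every alternative, and the similarity across genotypes moved by less than its spread over pairs. A choice by p53+/+ counts alone, made after the data were seen, gave a log2 ratio of 3.22 for the summed level. Apart from the counts above, the cause was not tested. No paired analysis was possible because the columns carry no replicate number of the labels. With 2 libraries a genotype, no exact test of a sum could pass the threshold, and the 1550 member counts of library 7 limit its shares.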
